A study of Mus musculus with 12 samples.

Results

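Expression of 44 DNA replication and S phase genes was compared between mouse embryonic fibroblasts of 2 genotypes, with and without a glucocorticoid. The genes were chosen by name for their known roles, and older names of Mcm genes in the scanner files were counted. All 44 of 44 had at least 1 probe and passed the filter on dim signals, among 20836 genes measured on the arrays. They had 61 probes, of which 55 passed, and each gene is given by its passing probe with the highest mean signal. Of the 44, 43 were well above background on all 12 arrays, Rrm2 was on 11, and none was saturated on any array.

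Replication begins when the origin recognition complex marks origins in G1 phase and Cdc6 and Cdt1 load the ring-shaped Mcm helicase onto them, a step called licensing. In S phase the helicase is switched on by Cdc45 and the GINS complex, DNA polymerase alpha with its primase lays down primers, and polymerases delta and epsilon copy the strands with the help of the sliding clamp Pcna. Many of these genes are transcribed under E2F factors as cells pass from G1 into S phase, and glucocorticoids are known to slow the growth of several cell types.

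Embryos of a C57Bl/6 background gave the fibroblasts (MEFs) at E12.5. The 4 groups were homozygous GR-C3 knockin cells given 100 nM dexamethasone (Dex) for 6 hours (GR-C3 Dex), the same cells given vehicle (GR-C3 vehicle), wild-type cells given Dex (WT Dex) and wild-type cells given vehicle (WT vehicle), with 3 arrays each. Dex is a synthetic agonist of the glucocorticoid receptor (GR), which Nr3c1 encodes. The knockin carries an exon 2 of Nr3c1 in which only the start codon of the short GR-C3 isoform is left and the other 7 start codons are mutated. The line came from 1 targeted ES cell clone, its selection cassette was removed with Flp, and WT cells carried the unedited gene. The samples are labelled biological replicates, but separate embryos or cultures are not named, so p-values measure only the spread between these samples. For the same reason, a difference between genotypes and one between the embryos each genotype came from cannot be told apart.

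Levels below are log2 values of the processed signal relative to each array's 75th percentile, and values of a group are given in the order of replicates 1, 2 and 3. The 75th percentile of the signal was 883 to 1815 on the 12 arrays, and 71.3 to 79.0% of spots were well above background. The number of arrays limits the precision. The array labelled WT vehicle replicate 1 went against its label. Its correlation across genes, which are not independent replicates, was 0.983 with each of the other WT vehicle arrays, which correlated at 0.998 with each other, and 0.987 to 0.989 with the WT Dex arrays. Those WT Dex arrays correlated at 0.992 to 0.995 with each other, so WT vehicle replicate 1 stood apart from both groups. It was also the only array of the series on its slide. Per1, a clock gene that GR induces directly, lay at 1.66 on that array, against -0.39 and -0.46 on the other WT vehicle arrays. For 31 of the 44 members its level was nearer to the WT Dex mean than to the mean of the other WT vehicle arrays, which was so for 61.9% of all genes. The counts called are therefore given with all 12 arrays and again with 11, leaving that array out. Values of single genes are from 12 arrays unless 11 are named. Nr3c1 RNA was read in both genotypes, at 1.06 to 1.80 in WT and 1.39 to 1.86 in GR-C3, so its level does not check the genotype labels.

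**Figure D1:**
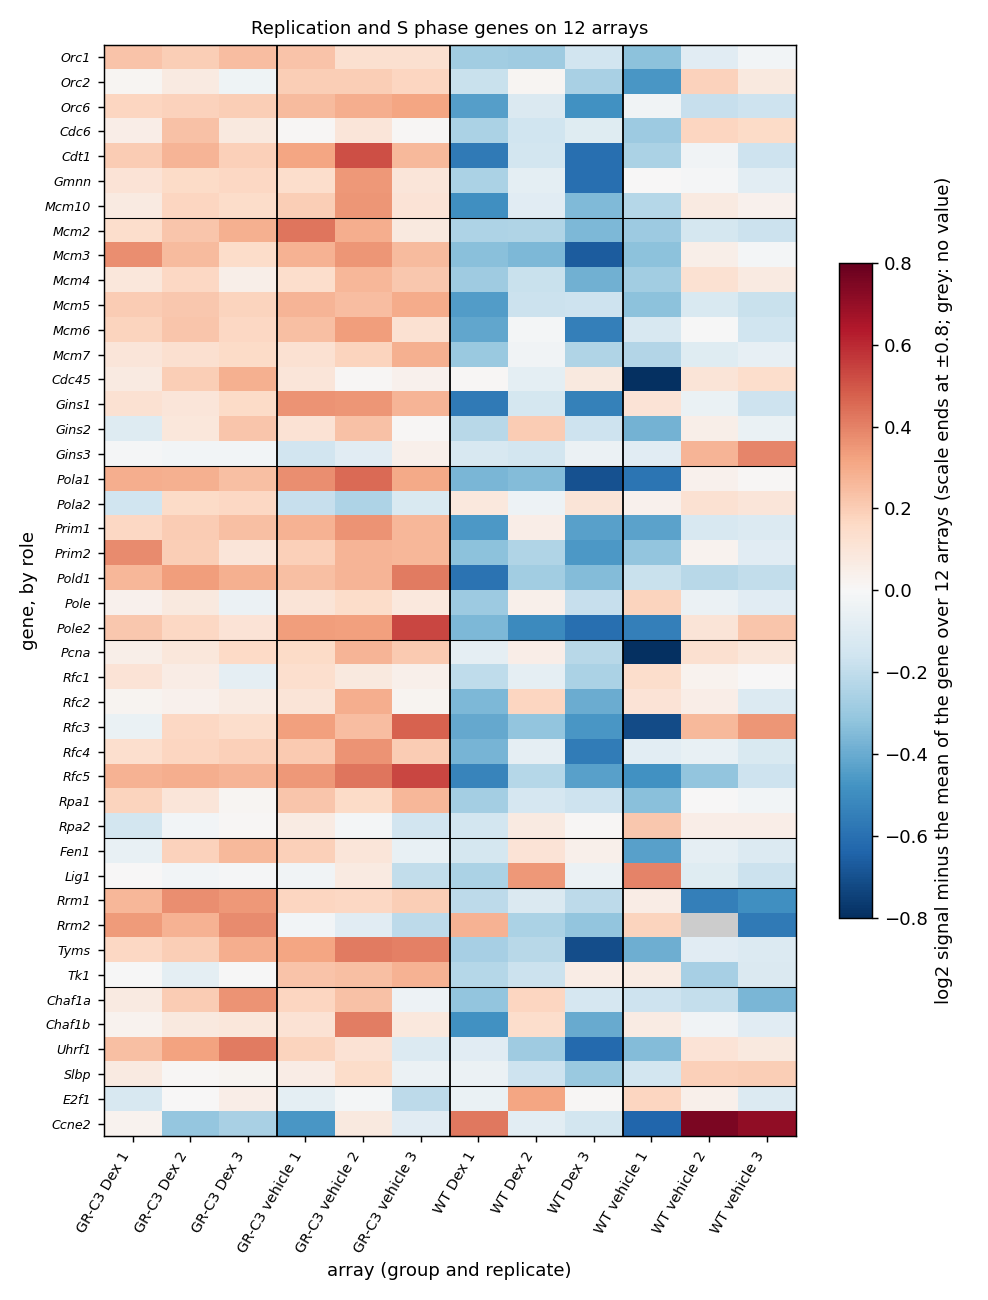
Level of each of the 44 members on each of the 12 arrays, as the log2 level minus the mean of that gene over the arrays, with genes ordered by role and arrays by group. Most members are above their mean on the GR-C3 arrays and below it on the WT Dex arrays and on the array labelled WT vehicle replicate 1, and the grey cell is the missing value of Rrm2.

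The first comparison asked how replication genes differed between GR-C3 and WT cells when both were under Dex. GR-C3 Dex cells had higher levels of 22 of the 44 members than WT Dex cells and a lower level of none (limma, Benjamini-Hochberg adjusted p under 0.05). Of all genes, 17.3% were called higher and 12.1% lower in the same comparison. The 22 spanned the Mcm ring, the origin recognition complex, primase, subunits of the 3 replicative polymerases, the clamp loader and nucleotide synthesis. The differences of the 22 were 1.24- to 1.67-fold, and the median log2 difference over the 44 was 0.41, against 0.12 over all genes. Of the 44, 40 had a difference above 0, and 28 had every GR-C3 Dex array above every WT Dex array, which 31.9% of all genes had, while none had the reverse, which 18.4% had. With 11 arrays 26 members were higher and none was lower, against 24.3% and 16.2% of all genes, and the members added were Cdc6, Rfc3, Rpa1 and Rrm2.

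The calls under Dex depended on some arrays and on the slide. Of the 22 calls, 14 held in each of the 12 fits that left out 1 array, and 14 members were called without WT Dex replicate 3 and also without GR-C3 Dex replicate 2. Over those 12 fits, 3986 to 8431 of all 20836 genes were called. The 12 arrays came from 4 slides, and no slide held both genotypes under the same treatment. Slides 1 and 2 held only WT arrays and slide 4 only GR-C3 arrays, so genotype and slide were largely confounded. Slide 3 held WT Dex and GR-C3 vehicle arrays, so the genotype differences of a fit with slide blocks are indirect. Under Dex they pass through GR-C3 vehicle replicate 3, the only vehicle array on slide 4. The consensus correlation of arrays within a slide was 0.52. With the slide as a fixed block 8 members were called higher and the median was 0.40. That fit called 3222 of all 20836 genes higher or lower. With normexp background correction on the deposited local backgrounds 2 were called, Pold1 and Rfc5, with a median of 0.60. The highest of those backgrounds was 65361 on WT Dex replicate 3 and 26732 on replicate 2, against 75 on replicate 1. With normexp on repaired local backgrounds 20 of the 22 calls held, and 20 also held with quantile normalization.

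**Figure D2:**
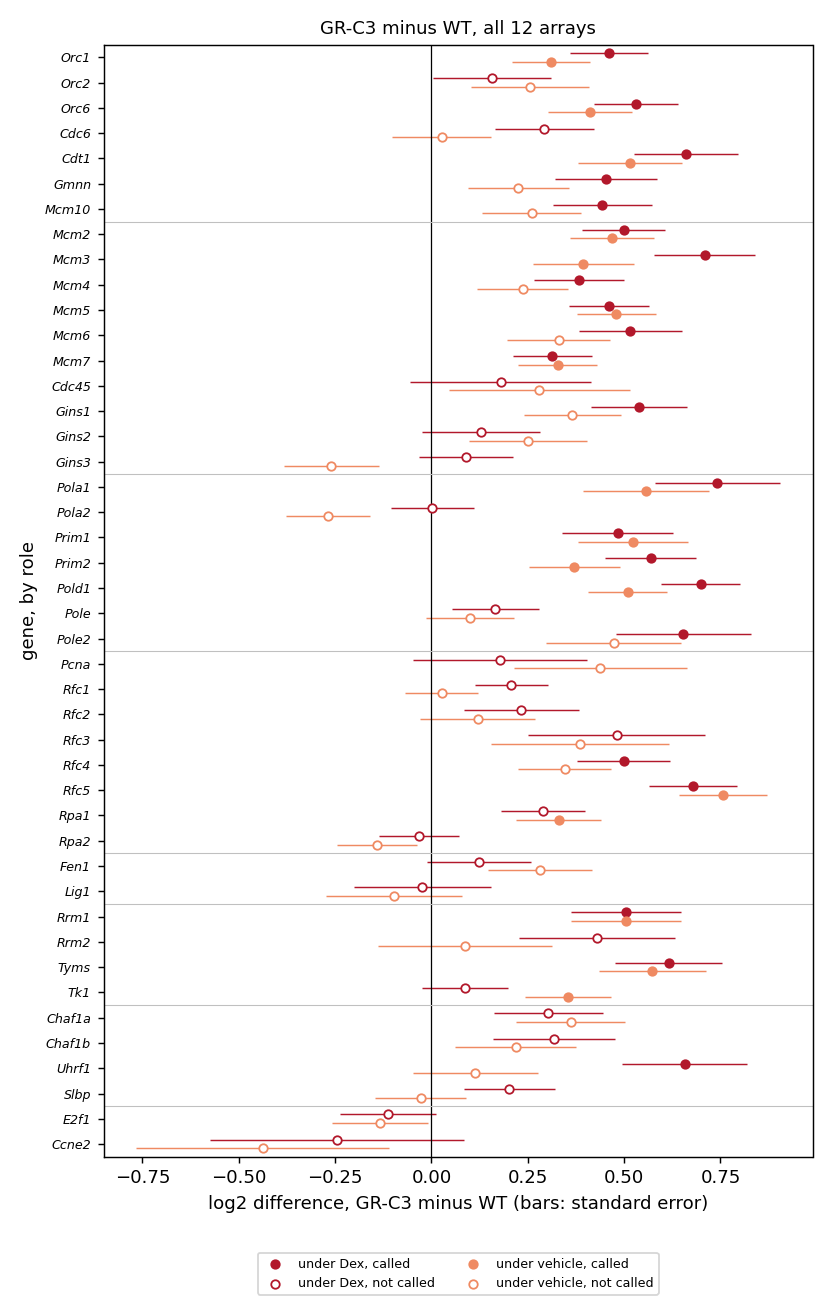
Log2 difference GR-C3 minus WT of each member under Dex and under vehicle with 12 arrays, with bars of 1 standard error and filled points where the Benjamini-Hochberg adjusted p was under 0.05. Nearly all points lie above 0, with medians of 0.41 under Dex and 0.32 under vehicle, and the called points are all above 0.

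The second comparison asked whether the genotypes already differed under vehicle. GR-C3 vehicle cells had higher levels of 16 of the 44 members than WT vehicle cells and lower levels of none, against 14.5% and 10.2% of all genes. The median log2 difference was 0.32, against 0.11 over all genes, 37 members had a difference above 0, 27 did not overlap between the groups with GR-C3 higher, as 26.3% of all genes did, and 1 did not with GR-C3 lower, as 17% did. With 11 arrays 11 members were higher and 2 lower, Gins3 and Ccne2, against 16.2% and 11.1% of all genes, and the median was 0.23. Then 29 members did not overlap with GR-C3 higher and 6 with GR-C3 lower, against 40.1% and 24.2% of all genes. Of the 16 members, 14 were also called under Dex with 12 arrays. They were Orc1, Orc6, Cdt1, Mcm2, Mcm3, Mcm5, Mcm7, Pola1, Prim1, Prim2, Pold1, Rfc5, Rrm1 and Tyms. Of the 16, the 6 members Orc1, Mcm3, Mcm7, Prim1, Prim2 and Rpa1 were not called under vehicle with 11 arrays, and Gins1 was called in addition. Rpa1 and Tk1 were called under vehicle and not under Dex with 12 arrays, and whether the genotype difference itself depended on Dex is the interaction, given with the Dex responses.

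Under vehicle 5 of the 16 calls held in each fit without 1 array, those of Mcm2, Mcm5, Pold1, Rfc5 and Tyms. The number called was 5, 6 or 7 without GR-C3 vehicle replicate 2, 3 or 1, 9 without WT vehicle replicate 3, and 10 without GR-C3 Dex replicate 2 or 3. Over the fits of 12 arrays without 1 array, 3235 to 5684 of all 20836 genes were called. With the slide as a fixed block 2 members were called, Rrm1 and Rrm2, and the median was 0.12. That fit called 1630 of all 20836 genes higher or lower. No member was called with normexp on the deposited local backgrounds, while 12 of the 16 calls held with repaired ones and 10 with quantile normalization. In 11 arrays the count was 3 without WT vehicle replicate 2, 4 without WT vehicle replicate 3 and 8 without GR-C3 vehicle replicate 2.

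Markers of fibroblasts and of other cells were measured beside the replication genes. The 13 fibroblast markers were above background on all arrays, and their summed linear level was 879 to 936 in GR-C3 Dex, 821 to 965 in GR-C3 vehicle, 840 to 1037 in WT Dex and 756 to 893 in WT vehicle. Among them Dcn (2.41 to 2.55 in GR-C3, against 3.30 to 3.52 in WT) and Col3a1 (5.53 to 5.83, against 6.08 to 6.26) had lower log2 levels on every GR-C3 array than on any WT array, Twist1 a higher one, and 10 overlapped. The sum of 3 of 4 skeletal muscle markers was 2.51 to 3.14 in GR-C3 Dex, 2.74 to 2.97 in GR-C3 vehicle, 0.457 to 0.585 in WT Dex and 0.442 to 0.470 in WT vehicle, and Myf5 was not measured above background. Des was higher on every GR-C3 array (1.10 to 1.44 in GR-C3, against -2.37 to -1.66 in WT), and Myod1 and Myog overlapped between the genotypes. The sum of 3 of 6 endothelial markers was 2.38 to 2.56 in GR-C3 Dex, 1.92 to 2.13 in GR-C3 vehicle, 0.627 to 0.739 in WT Dex and 0.594 to 0.787 in WT vehicle, with Pecam1, Cdh5 and Tie1 not above background. Emcn and Kdr were higher on every GR-C3 array and Tek overlapped. The sum of 3 of 5 epithelial markers was 1.57 to 1.69 in GR-C3 Dex, 2.01 to 2.43 in GR-C3 vehicle, 0.451 to 0.614 in WT Dex and 0.558 to 0.700 in WT vehicle, with Epcam and Cdh1 not above background. Krt18 (0.44 to 1.08 in GR-C3, against -2.14 to -1.18 in WT) and Krt8 were higher on every GR-C3 array, and Krt14 overlapped. The sum of 4 neural and glial markers was 5.94 to 6.42 in GR-C3 Dex, 4.44 to 4.91 in GR-C3 vehicle, 3.77 to 4.60 in WT Dex and 2.99 to 3.90 in WT vehicle. In this sum the lowest GR-C3 vehicle array lay below the highest WT Dex array. Sox10, Sox2 and Mbp were higher on every GR-C3 array, and Tubb3 overlapped. Of the leukocyte markers 7 of 8 were measured, with a sum of 4.82 to 5.29 in GR-C3 Dex, 5.78 to 6.26 in GR-C3 vehicle, 6.33 to 7.23 in WT Dex and 6.65 to 8.31 in WT vehicle. Lyz2 (2.13 to 2.52 in GR-C3, against 2.56 to 2.95 in WT) and Ptprc were lower on every GR-C3 array, and the other 5 overlapped. Of the pluripotent markers 1 of 3 passed the filter, Zfp42, with a linear level of at most 0.0297 in any group. Its log2 level was -6.31 to -5.07 in GR-C3 and -6.70 to -6.03 in WT. Pou5f1 and Nanog were not above background. How many of all genes kept all GR-C3 arrays apart from all WT arrays was not counted, so these marker counts have no such share beside them. Within 1 treatment, 26.3% of all genes did not overlap with GR-C3 higher and 17% with GR-C3 lower under vehicle. Under Dex 31.9% and 18.4% did not. The part of these cell types in the difference in replication genes was not tested. In bulk RNA a larger share of cells in S phase and more RNA of these genes per cell cannot be told apart.

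Promoters were read for motifs because so many of these genes were higher together in GR-C3 cells. Promoter windows of 300 bases, from 250 before to 50 after the gene's start in RefSeq on GRCm38.p6, were matched for 36 of the 44 members. They were searched on both strands for the E2F-type 8-mers TTTCCCGC, TTTCGCGC, TTTGCCGC and TTTGGCGC, which do not contain one another. At least 1 was found in 14 of the 36 members (38.9%), against 704 of 27025 genes (2.60%). A gene with several starts counted if any of its windows held one, and Mcm7, Uhrf1 and Lig1 also had windows without one. Of the 14 members with such an 8-mer, 10 were called higher in GR-C3 Dex than in WT Dex, with a median log2 difference of 0.50. Of the 22 without one, 8 were called, with a median of 0.30. Among all genes 17.3% were called higher in that comparison. These are counts of letters and are given without a test. The CCAAT box, searched as CCAAT, was found in 23 of the 36 (63.9%), against 41.1% of genes. The palindromic glucocorticoid response element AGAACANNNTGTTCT was found in none of the 36 and in 3 of the 27025 genes. The 4 promoters shown are those of the called members with an E2F-type 8-mer whose difference under Dex was largest, and capitals mark the 8-mer.
Pola1, chrX:93632106-93632405, minus strand: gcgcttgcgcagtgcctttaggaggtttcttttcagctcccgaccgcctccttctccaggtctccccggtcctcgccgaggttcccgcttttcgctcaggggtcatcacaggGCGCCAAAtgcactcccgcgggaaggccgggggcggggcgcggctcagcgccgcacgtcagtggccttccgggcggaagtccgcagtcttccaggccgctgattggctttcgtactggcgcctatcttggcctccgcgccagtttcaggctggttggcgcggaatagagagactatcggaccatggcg
Mcm3, chr1:20820263-20820562, minus strand: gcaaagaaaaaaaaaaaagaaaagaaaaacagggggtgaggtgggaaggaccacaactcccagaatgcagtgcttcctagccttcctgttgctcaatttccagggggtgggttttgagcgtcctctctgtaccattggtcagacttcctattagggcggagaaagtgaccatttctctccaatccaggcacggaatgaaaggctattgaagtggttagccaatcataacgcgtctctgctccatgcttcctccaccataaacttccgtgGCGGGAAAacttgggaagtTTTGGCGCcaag
Pold1, chr7:44548766-44549065, minus strand: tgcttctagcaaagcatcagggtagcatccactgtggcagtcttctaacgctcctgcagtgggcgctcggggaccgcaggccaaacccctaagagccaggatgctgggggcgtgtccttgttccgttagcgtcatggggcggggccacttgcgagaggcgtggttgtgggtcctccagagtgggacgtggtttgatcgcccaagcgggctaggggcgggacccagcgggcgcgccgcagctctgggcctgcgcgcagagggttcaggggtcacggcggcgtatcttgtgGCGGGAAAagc
Cdt1, chr8:122567765-122568064, plus strand: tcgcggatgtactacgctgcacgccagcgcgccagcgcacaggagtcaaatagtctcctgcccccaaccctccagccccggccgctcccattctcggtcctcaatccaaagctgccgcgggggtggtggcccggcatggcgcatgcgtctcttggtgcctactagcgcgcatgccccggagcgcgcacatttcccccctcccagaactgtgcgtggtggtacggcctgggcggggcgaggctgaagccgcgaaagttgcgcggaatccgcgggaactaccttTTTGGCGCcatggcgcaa
In Pola1 the 8-mer begins 138 bases before the start. In Mcm3 a pair lies after the start, beginning at bases 20 and 39. In Pold1 it begins at base 40 and in Cdt1 at base 33.

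The counts of each role below stand against 17.3% of all genes called higher under Dex and 14.5% under vehicle with 12 arrays, and 24.3% and 16.2% with 11. Among the 7 genes of origin recognition, loading and licensing, 5 were higher in GR-C3 than in WT cells under Dex and 3 under vehicle, and 6 and 2 with 11 arrays. Cdt1, the loading factor that brings the Mcm ring to origins, was measured by a probe at chr8:121214998-121215057 (mm7, the build of the scanner files, whose gene annotation is not used here). Its level was 2.66, 2.73 and 2.66 in GR-C3 Dex, 2.78, 2.98 and 2.72 in GR-C3 vehicle, 1.90, 2.32 and 1.86 in WT Dex and 2.21, 2.43 and 2.29 in WT vehicle. Every GR-C3 array lay above every WT array. The difference was 0.66 ± 0.13 (SE) under Dex, 1.58-fold, with an adjusted p of 0.00443, and 0.52 under vehicle with an adjusted p of 0.0177 (0.46 with 11 arrays, adjusted p = 0.038). Gmnn encodes geminin, the inhibitor that binds Cdt1 once S phase has begun. Geminin RNA lay at 3.27, 3.32 and 3.33 in GR-C3 Dex, 3.30, 3.51 and 3.26 in GR-C3 vehicle, 2.91, 3.09 and 2.56 in WT Dex and 3.17, 3.15 and 3.08 in WT vehicle. Its GR-C3 arrays too were above all WT arrays, and the difference was called under Dex (0.45 ± 0.13, adjusted p = 0.0258) and not under vehicle.

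Orc6, a subunit of the origin recognition complex, lay at 3.34, 3.35 and 3.36 in GR-C3 Dex, 3.42, 3.46 and 3.48 in GR-C3 vehicle, 2.73, 3.05 and 2.68 in WT Dex and 3.14, 2.98 and 3.00 in WT vehicle. Orc1, its largest subunit, lay at -2.10, -2.13 and -2.08 in GR-C3 Dex, -2.10, -2.20 and -2.20 in GR-C3 vehicle, -2.60, -2.61 and -2.48 in WT Dex and -2.65, -2.42 and -2.35 in WT vehicle. Neither gene had a GR-C3 array at or below a WT array. Orc6 was higher by 0.53 ± 0.11 under Dex (adjusted p = 0.00479) and by 0.41 under vehicle (0.0194), or 0.46 with 11 arrays (0.0129). The difference of Orc1 was 0.46 ± 0.10 under Dex (adjusted p = 0.00675) and 0.31 under vehicle (0.0456), where it was not called with 11 arrays (0.22, 0.0788). Mcm10, which joins the helicase when it is switched on, was at 1.26, 1.36 and 1.34 in GR-C3 Dex, 1.39, 1.54 and 1.30 in GR-C3 vehicle, 0.70, 1.10 and 0.84 in WT Dex and 0.97, 1.26 and 1.22 in WT vehicle. Mcm10 did not overlap between genotypes within either treatment and was called under Dex (0.44 ± 0.13, adjusted p = 0.0251) and not under vehicle. Orc2, another subunit of the complex, was not called in any comparison, and its difference under Dex was 0.16 with a 95% interval of -0.18 to 0.50.

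Of the 10 helicase genes, all 6 subunits of the Mcm ring and Gins1 were higher in GR-C3 cells under Dex, while Cdc45, Gins2 and Gins3 were not called. Under vehicle 4 were called with 12 arrays, Mcm2, Mcm3, Mcm5 and Mcm7. With 11 arrays Mcm3 and Mcm7 were not called there, Mcm2, Mcm5 and Gins1 were higher, and Gins3 was lower. Mcm3 (probe at chr1:20998636-20998695) lay at 3.21, 3.09 and 2.98 in GR-C3 Dex, 3.11, 3.19 and 3.09 in GR-C3 vehicle, 2.50, 2.48 and 2.17 in WT Dex and 2.51, 2.89 and 2.82 in WT vehicle. The GR-C3 and WT arrays did not overlap, and the difference was 0.71 ± 0.13 under Dex, 1.64-fold (adjusted p = 0.00253), and 0.39 under vehicle (0.0487), which was not called with 11 arrays (0.28, 0.108). Mcm2 lay at 1.85, 1.93 and 2.00 in GR-C3 Dex, 2.14, 2.00 and 1.79 in GR-C3 vehicle, 1.46, 1.47 and 1.35 in WT Dex and 1.42, 1.57 and 1.54 in WT vehicle. Mcm5 lay at 2.38, 2.39 and 2.36 in GR-C3 Dex, 2.45, 2.42 and 2.48 in GR-C3 vehicle, 1.73, 2.01 and 2.01 in WT Dex and 1.85, 2.06 and 2.00 in WT vehicle. Both were above all WT arrays on every GR-C3 array, by 0.50 ± 0.11 for Mcm2 (adjusted p = 0.0064) and 0.46 ± 0.10 for Mcm5 (0.0074) under Dex. Under vehicle Mcm2 was higher by 0.47 (0.00987) and Mcm5 by 0.48 (0.00674), and both by 0.42 with 11 arrays (0.019 and 0.0121).

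Mcm4, Mcm6 and Mcm7 complete the ring. Mcm6 lay at 4.57, 4.61 and 4.55 in GR-C3 Dex, 4.63, 4.72 and 4.51 in GR-C3 vehicle, 3.97, 4.37 and 3.84 in WT Dex and 4.26, 4.39 and 4.23 in WT vehicle, and Mcm7 at 3.43, 3.46 and 3.48 in GR-C3 Dex, 3.45, 3.51 and 3.62 in GR-C3 vehicle, 3.03, 3.30 and 3.09 in WT Dex and 3.09, 3.23 and 3.26 in WT vehicle. For both the GR-C3 arrays were all above the WT arrays, and Mcm6 was called under Dex (0.52 ± 0.13, adjusted p = 0.0153). Mcm7 was called under Dex (0.31 ± 0.10, 0.0402) and under vehicle (0.33, 0.0389), though not under vehicle with 11 arrays (0.28, 0.0693). Mcm4 lay at 3.72, 3.80 and 3.68 in GR-C3 Dex, 3.77, 3.89 and 3.84 in GR-C3 vehicle, 3.34, 3.45 and 3.25 in WT Dex and 3.35, 3.75 and 3.70 in WT vehicle, so that its WT vehicle replicates 2 and 3 lay within the range of the GR-C3 Dex arrays. Its difference was called under Dex (0.38 ± 0.12, adjusted p = 0.0324). Gins1, a GINS subunit, lay at -0.23, -0.25 and -0.19 in GR-C3 Dex, 0.01, 0.01 and -0.08 in GR-C3 vehicle, -0.91, -0.49 and -0.89 in WT Dex and -0.24, -0.40 and -0.51 in WT vehicle. GR-C3 Dex lay above WT Dex on every array, and GR-C3 exceeded WT by 0.54 ± 0.13 under Dex (adjusted p = 0.00891). Gins3, another subunit of the same complex, lay at -0.85, -0.86 and -0.86 in GR-C3 Dex, -0.99, -0.93 and -0.80 in GR-C3 vehicle, -0.97, -0.98 and -0.89 in WT Dex and -0.93, -0.57 and -0.45 in WT vehicle. Here WT vehicle replicates 2 and 3 stood above all the other arrays, and with 11 arrays GR-C3 vehicle was lower than WT vehicle by a log2 difference of -0.40 ± 0.09 (adjusted p = 0.00909).

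Mcm3 had a second passing probe that gave smaller differences. The probe used lies within a single stretch of the genome, while the second one, shown because the 2 probes disagree, spans 517 bases of the genome (chr1:21000880-21001396, minus strand of mm7), so its 60 bases cross an intron.
Mcm3, the second probe: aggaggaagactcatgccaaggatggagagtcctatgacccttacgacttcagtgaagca
Its GR-C3 minus WT difference was 0.20 under Dex and 0.07 under vehicle, against 0.71 and 0.39 by the probe used. Under Dex Pold1 gave 0.37 by its second probe, Uhrf1 0.57, Gins1 0.52 and Tyms 0.65 and 0.68 by its other probes. The Tyms probe with 0.65 was far dimmer, at -5.01 in GR-C3 Dex against 3.15 by the probe used. By second probes Cdc6 gave 0.09 against 0.29 by the probe used, Rfc2 0.06 against 0.23 and Rpa2 0.08 against -0.03. Ccne2 gave -0.11 against -0.25 and E2f1 -0.15 against -0.11. In all, 10 members had more than 1 passing probe.

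**Figure D3:**
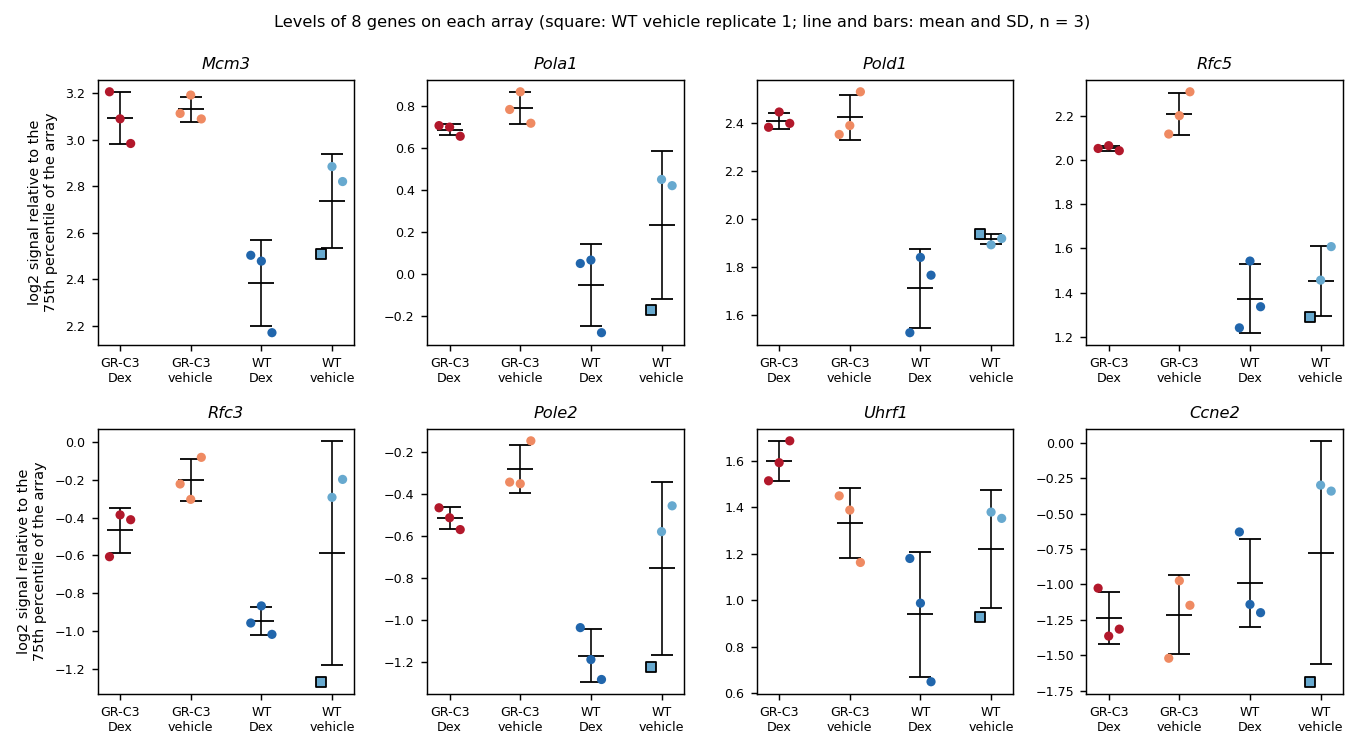
Log2 level of 8 members (Mcm3, Pola1, Pold1, Rfc5, Rfc3, Pole2, Uhrf1 and Ccne2) on each array by group, with the mean and SD of each group of 3 arrays and a square for the array labelled WT vehicle replicate 1. Mcm3, Pola1, Pold1 and Rfc5 are higher on every GR-C3 array than on every WT array. Rfc3 and Pole2 are high on WT vehicle replicates 2 and 3 as well, and Ccne2 is highest on those 2 arrays and lower on every GR-C3 array.

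Of the 7 polymerase and primase genes, 5 were higher in GR-C3 cells under Dex and 4 under vehicle, and 5 and 2 with 11 arrays. Pola1, the catalytic subunit of polymerase alpha, was read at chrX:88691502-88691561 and lay at 0.71, 0.70 and 0.66 in GR-C3 Dex, 0.78, 0.87 and 0.72 in GR-C3 vehicle, 0.05, 0.07 and -0.28 in WT Dex and -0.17, 0.45 and 0.42 in WT vehicle. All GR-C3 arrays lay above all WT arrays. It had the largest difference of the 44 under Dex with 12 arrays, 0.74 ± 0.16 or 1.67-fold (adjusted p = 0.00677), and a difference of 0.56 ± 0.16 under vehicle (0.0298), which was 0.35 with 11 arrays (0.0438). Pold1, the catalytic subunit of polymerase delta, was read at chr7:40707373-40707741 and lay at 2.38, 2.45 and 2.40 in GR-C3 Dex, 2.35, 2.39 and 2.53 in GR-C3 vehicle, 1.53, 1.84 and 1.77 in WT Dex and 1.94, 1.89 and 1.92 in WT vehicle. The genotypes were again apart on every array, by 0.70 ± 0.10 or 1.62-fold under Dex (adjusted p = 0.000651) and by 0.51 ± 0.10 under vehicle (0.00484), or 0.52 with 11 arrays (0.00646).

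Prim1, the catalytic subunit of primase, lay at 1.94, 1.98 and 2.01 in GR-C3 Dex, 2.05, 2.13 and 2.04 in GR-C3 vehicle, 1.31, 1.82 and 1.34 in WT Dex and 1.35, 1.64 and 1.66 in WT vehicle. Prim2, its other subunit, lay at 2.14, 1.96 and 1.86 in GR-C3 Dex, 1.95, 2.03 and 2.03 in GR-C3 vehicle, 1.43, 1.52 and 1.30 in WT Dex and 1.45, 1.79 and 1.67 in WT vehicle. In both genes every GR-C3 array exceeded every WT array. Prim1 was higher by 0.48 ± 0.14 under Dex (adjusted p = 0.0277) and 0.52 under vehicle (0.0224), and Prim2 by 0.57 ± 0.12 (0.0049) and 0.37 (0.0415). Under vehicle neither was called with 11 arrays (0.42, adjusted p = 0.053, for Prim1, and 0.28, 0.0858, for Prim2). Pola2, the accessory subunit of polymerase alpha, differed from its partner Pola1 in these arrays, with a difference of 0.00 under Dex and a 95% interval of -0.24 to 0.24. Pole, the catalytic subunit of polymerase epsilon, had a difference of 0.17 (-0.08 to 0.42) and was not called.

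Pole2, an accessory subunit of polymerase epsilon, was read by a probe that spans 1400 bases of the genome (chr12:67147975-67149374, minus strand of mm7) and therefore joins exons. Its sequence is shown with that of Rfc3, whose probe also joins exons (chr5:150581311-150583109, 1799 bases), because these genes had the lowest adjusted p-values of the WT Dex response.
Pole2 probe: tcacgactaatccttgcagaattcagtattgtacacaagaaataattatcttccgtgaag
Rfc3 probe: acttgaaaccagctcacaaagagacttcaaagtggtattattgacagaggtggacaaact
Pole2 lay at -0.46, -0.51 and -0.57 in GR-C3 Dex, -0.34, -0.35 and -0.14 in GR-C3 vehicle, -1.04, -1.19 and -1.28 in WT Dex and -1.22, -0.58 and -0.45 in WT vehicle. The WT Dex arrays and the array labelled WT vehicle replicate 1 were below all the others. GR-C3 exceeded WT by 0.65 ± 0.18 or 1.57-fold under Dex (adjusted p = 0.0179), and the difference of 0.47 under vehicle was not called (0.0733).

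Of the 8 genes of the clamp, its loader and the single-strand binding protein, 2 were higher under Dex and 2 under vehicle with 12 arrays, and 4 and 1 with 11. Rfc5, a subunit of the loader, was read at chr5:116608932-116608991 and lay at 2.05, 2.06 and 2.04 in GR-C3 Dex, 2.12, 2.20 and 2.31 in GR-C3 vehicle, 1.24, 1.54 and 1.34 in WT Dex and 1.29, 1.46 and 1.61 in WT vehicle. No GR-C3 array overlapped a WT array, and the difference was 0.68 ± 0.11 or 1.60-fold under Dex (adjusted p = 0.00153) and 0.76 ± 0.11 under vehicle (0.000847), or 0.68 with 11 arrays (0.00163). Rfc4 lay at 1.67, 1.71 and 1.73 in GR-C3 Dex, 1.75, 1.90 and 1.74 in GR-C3 vehicle, 1.17, 1.46 and 0.98 in WT Dex and 1.45, 1.48 and 1.42 in WT vehicle, with the genotypes apart in the same way. It was called under Dex (0.50 ± 0.12, adjusted p = 0.0109). Rfc3 lay at -0.61, -0.39 and -0.41 in GR-C3 Dex, -0.22, -0.30 and -0.08 in GR-C3 vehicle, -0.96, -0.87 and -1.02 in WT Dex and -1.27, -0.29 and -0.20 in WT vehicle. GR-C3 Dex exceeded WT Dex on every array, by 0.48 ± 0.23 with 12 arrays (adjusted p = 0.135) and 0.48 ± 0.10 with 11 (0.00339), while WT vehicle replicates 2 and 3 lay within the range of the GR-C3 vehicle arrays.

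Rpa1, the largest subunit of the protein that coats single-stranded DNA, lay at 3.35, 3.28 and 3.19 in GR-C3 Dex, 3.40, 3.33 and 3.44 in GR-C3 vehicle, 2.91, 3.04 and 3.01 in WT Dex and 2.84, 3.18 and 3.16 in WT vehicle. The genotypes did not overlap within either treatment, and Rpa1 was called under vehicle with 12 arrays (0.33, adjusted p = 0.0497) and not with 11 (0.22, 0.0904). Under Dex it was called with 11 arrays (0.29, 0.0165) and not with 12 (0.0693). The clamp Pcna itself was not called in any comparison. Its level was 4.01, 4.05 and 4.12 in GR-C3 Dex, 4.11, 4.23 and 4.17 in GR-C3 vehicle, 3.89, 4.01 and 3.74 in WT Dex and 3.06, 4.09 and 4.05 in WT vehicle. The highest WT Dex array and the lowest GR-C3 Dex array were both at 4.01. The difference under Dex was 0.18 with a 95% interval of -0.32 to 0.67. The lowest value was on the array labelled WT vehicle replicate 1. Rfc1 (0.21), Rfc2 (0.23) and Rpa2 (-0.03) were not called under Dex either.

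Neither gene of Okazaki fragment processing was called in any comparison. Lig1, the ligase that seals the fragments, lay at 2.70, 2.68 and 2.69 in GR-C3 Dex, 2.67, 2.77 and 2.50 in GR-C3 vehicle, 2.44, 3.04 and 2.65 in WT Dex and 3.09, 2.60 and 2.53 in WT vehicle. Its groups overlapped throughout, and its difference under Dex was -0.02 with an interval of -0.41 to 0.37. The flap endonuclease Fen1 had a difference of 0.12 (-0.17 to 0.42).

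All 4 genes of nucleotide supply were called in some genotype comparison. Tyms, thymidylate synthase, lay at 3.10, 3.13 and 3.22 in GR-C3 Dex, 3.25, 3.35 and 3.34 in GR-C3 vehicle, 2.67, 2.71 and 2.23 in WT Dex and 2.55, 2.84 and 2.83 in WT vehicle. Rrm1, the large subunit of ribonucleotide reductase, was read at chr7:98514808-98514868 and lay at 3.93, 4.04 and 4.01 in GR-C3 Dex, 3.83, 3.83 and 3.86 in GR-C3 vehicle, 3.46, 3.55 and 3.45 in WT Dex and 3.72, 3.11 and 3.17 in WT vehicle. In both genes every GR-C3 array was above every WT array. Tyms was higher by 0.62 ± 0.14 under Dex, 1.53-fold (adjusted p = 0.00755), and by 0.57 under vehicle (0.0121), or 0.48 with 11 arrays (0.0282). Rrm1 was higher by 0.51 ± 0.14 under Dex (0.0226) and by 0.50 under vehicle (0.0259), and by 0.70 ± 0.08 under vehicle with 11 arrays (0.000224). Tk1, the thymidine kinase of the salvage route, lay at 1.95, 1.87 and 1.94 in GR-C3 Dex, 2.18, 2.19 and 2.22 in GR-C3 vehicle, 1.72, 1.77 and 2.00 in WT Dex and 2.01, 1.68 and 1.83 in WT vehicle. It was apart between genotypes under vehicle (0.35 ± 0.11, adjusted p = 0.0403, and 0.44, 0.0113, with 11 arrays) and overlapped under Dex (0.09 ± 0.11, 0.576). Rrm2, the small subunit of the reductase, lay at 3.02, 2.96 and 3.06 in GR-C3 Dex, 2.66, 2.59 and 2.47 in GR-C3 vehicle, 2.96, 2.42 and 2.36 in WT Dex and 2.85 and 2.11 on replicates 1 and 3 of WT vehicle, its replicate 2 value there being an outlier spot left out as missing. WT Dex replicate 1 and the lowest GR-C3 Dex array were both near 2.96, and the difference under Dex was called with 11 arrays (0.43 ± 0.15, adjusted p = 0.0489) and not with 12 (0.133).

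Of the 4 genes of chromatin assembly, histone supply and methylation copying, Uhrf1 was higher in GR-C3 cells under Dex. Uhrf1, which brings the maintenance methyltransferase to newly copied DNA, was read at chr17:54481483-54481542 and lay at 1.51, 1.59 and 1.69 in GR-C3 Dex, 1.45, 1.39 and 1.16 in GR-C3 vehicle, 1.18, 0.99 and 0.65 in WT Dex and 0.93, 1.38 and 1.35 in WT vehicle. GR-C3 Dex lay above WT Dex on every array, by 0.66 ± 0.16 or 1.58-fold (adjusted p = 0.0121), whereas the groups overlapped under vehicle (0.11, 0.645). Slbp, which binds the histone mRNA stem-loop, lay at 2.39, 2.33 and 2.34 in GR-C3 Dex, 2.38, 2.47 and 2.27 in GR-C3 vehicle, 2.27, 2.15 and 2.02 in WT Dex and 2.17, 2.51 and 2.52 in WT vehicle, and its genotype difference was not called. The histone chaperone subunits Chaf1a (0.30 under Dex) and Chaf1b (0.32) were not called, and their 95% intervals reached from -0.01 to 0.61 and from -0.03 to 0.67. Of the S phase regulators, E2f1, the transcription factor of this program, had a difference under Dex of -0.11 (-0.39 to 0.16) and was not called. Ccne2, a cyclin of the entry into S phase, was read at chr4:11130171-11130230 and lay at -1.03, -1.36 and -1.32 in GR-C3 Dex, -1.52, -0.97 and -1.15 in GR-C3 vehicle, -0.63, -1.14 and -1.20 in WT Dex and -1.69, -0.30 and -0.34 in WT vehicle. WT vehicle replicates 2 and 3 were the highest of all, and with 11 arrays GR-C3 vehicle was lower than WT vehicle by a log2 difference of -0.89 ± 0.20 (adjusted p = 0.00985), against -0.44 with 12 (0.364).

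The third comparison asked what 6 hours of Dex did within WT cells. With all 12 arrays no member was called, against 0.12% of all genes, and 5 members had an unadjusted p under 0.05, as 16.6% of all genes did. The WT Dex arrays were all below the WT vehicle arrays for 3 members, as for 8.97% of all genes. With 11 arrays 8 members fell and 1 rose, against 6.79% and 5.41% of all genes. The 8 that fell were Rfc3, Pole2, Pola1, Mcm3, Gins3, Mcm4, Slbp and Cdc6, and the 1 that rose was Rrm1. The median log2 change of the 44 was -0.19, against 0.02 over all genes, and 37 were below 0. Of the 44, 21 had all WT Dex arrays below the WT vehicle arrays, which 23% of all genes had, and 1 had them above, as 19.8% did.

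In the levels given above, Rfc3 was between -1.02 and -0.87 in WT Dex, against -0.29 and -0.20 on the 2 remaining WT vehicle arrays. It fell to 0.614 of the vehicle level, by a log2 change of -0.70 ± 0.11 (adjusted p = 0.00229). Pole2 fell by 0.65 ± 0.11 on the log2 scale (0.00351), Pola1 by 0.49 ± 0.11 (0.021) and Mcm3 by 0.47 ± 0.12 (0.0303). The WT Dex arrays of these genes lay below both WT vehicle arrays in each case. Gins3 fell by 0.44 ± 0.09 (0.011), Mcm4 by 0.38 ± 0.09 (0.027) and Slbp by 0.36 ± 0.10 (0.0429). Cdc6, the loading factor that works with Cdt1, lay at -1.61, -1.43 and -1.59 in GR-C3 Dex, -1.66, -1.57 and -1.65 in GR-C3 vehicle, -1.92, -1.83 and -1.76 in WT Dex and -1.95, -1.49 and -1.51 in WT vehicle. It fell by 0.33 ± 0.09 (adjusted p = 0.0434). Rrm1 rose by 0.34 ± 0.08 (0.023), with 3.45 to 3.55 in WT Dex against 3.11 and 3.17 on WT vehicle replicates 2 and 3. By second probes the change was 0.04 for Mcm3 and -0.60 for Cdc6.

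**Figure D4:**
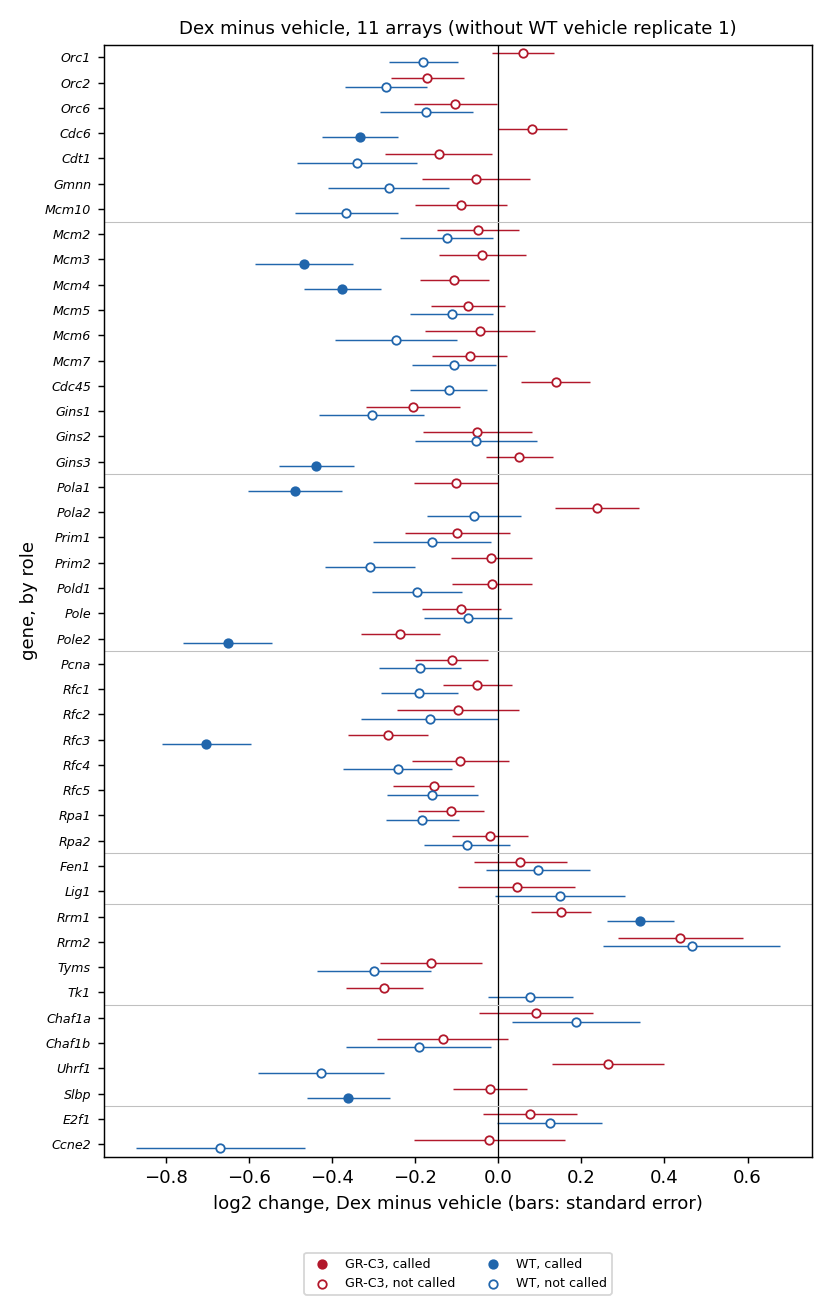
Log2 change Dex minus vehicle of each member in GR-C3 cells and in WT cells, with 11 arrays, bars of 1 standard error and filled points where the adjusted p was under 0.05. In WT cells 8 filled points are below 0 and 1 is above, and in GR-C3 cells no point is filled.

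The WT Dex response rested on the 2 remaining vehicle arrays. Without WT vehicle replicate 3 the call of Rfc3 was the 1 left, and without WT vehicle replicate 2 those of Pole2 and Rfc3. Without WT Dex replicate 2 there were 15 calls, and without WT Dex replicate 3, GR-C3 vehicle replicate 1 or GR-C3 Dex replicate 2 there were 6. The number of all genes called also changed with the array left out, so a changing count was not particular to the members. WT Dex replicate 2 was the highest of its group for 31 of the 44 members. With 12 arrays and the slide as a fixed block, Pole2 (-0.52, adjusted p = 0.0396) and Rfc3 (-0.71, 0.0266) were called as falling. Rrm2 was called as rising (0.84), and Pola1, Mcm3, Gins3, Mcm4, Slbp, Cdc6 and Rrm1 were not called. The Rrm2 value compared WT Dex replicate 1 (2.96) with WT vehicle replicate 3 (2.11) alone. Its WT Dex replicates 2 and 3 (2.42 and 2.36) lay below WT vehicle replicate 1 (2.85). The block's WT Dex change came only from the slide with WT Dex replicate 1 and WT vehicle replicates 2 and 3. Within that slide 42 of 44 members were lower on the Dex array, with a median of -0.26. These are the same estimates as those of the block and no separate result. There Rfc3 differed by -0.71, Pole2 by -0.52, Pola1 by -0.39 and Mcm3 by -0.35.

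The fourth comparison asked the same of GR-C3 cells. No member was called with 12 arrays, against 0.101% of all genes, or with 11, against 3.44% of all genes. The unadjusted p was under 0.05 for 1 member with 12 arrays and for 5 with 11, against 11.8% and 18.2% of all genes. The median change was -0.05, against -0.01 over all genes, and 32 of the 44 were below 0. The GR-C3 Dex arrays were all below the GR-C3 vehicle arrays for 13 members and all above for 3, against 18.1% and 11% of all genes. The members with the lowest unadjusted p with 11 arrays were Tk1 (-0.27 ± 0.09, adjusted p = 0.159), Rrm2 (0.44 ± 0.15, 0.178) and Rfc3 (-0.27 ± 0.10, 0.188). Rrm2 lay above the GR-C3 vehicle arrays on all GR-C3 Dex arrays and was called when WT Dex replicate 1 was left out as well, and with 12 arrays when the fit held GR-C3 arrays alone. Over the fits that left out 1 array besides WT vehicle replicate 1, 306 to 1141 of all 20836 genes were called. Within the slide that held all 3 GR-C3 Dex arrays and GR-C3 vehicle replicate 3, 24 of 44 members were lower under Dex, with a median of -0.02. The fitted log2 change was -0.04 for Mcm3 and -0.10 for Pola1, neither called. Over all genes the split of calls with 12 arrays was 16 higher and 5 lower, and 40 higher and 86 lower after quantile normalization.

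Whether the Dex change differed between genotypes was tested by the interaction, the GR-C3 change minus the WT change. No member was called with 12 arrays, when no gene was (0% of all genes; 1276 genes had an unadjusted p under 0.05), or with 11, when 1.14% of all genes were. With 11 arrays 36 of 44 members were above 0 with a median of 0.12, 10 had an unadjusted p under 0.05, against 14.2% of all genes, and the lowest adjusted p was that of Gins3 (0.49 ± 0.12, adjusted p = 0.0987). The difference of responses was 0.69 for Uhrf1, with a 95% interval of 0.24 to 1.14 and an adjusted p of 0.155. Uhrf1 was called when WT Dex replicate 1 was left out as well. Over the fits that left out 1 array besides WT vehicle replicate 1, 58 to 1190 of all 20836 genes were called. The difference of responses of other members was smaller. That difference was 0.44 for Rfc3 (0.12 to 0.76), 0.42 for Pole2 (0.10 to 0.74), 0.43 for Mcm3 (0.08 to 0.79) and 0.39 for Pola1 (0.05 to 0.73), with adjusted p-values of 0.203 to 0.292. Rfc5 had a difference of 0.00 (-0.33 to 0.33).

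The other genes of the pathway were described by a list of 50 further replication genes and one of 38 mitotic genes. Under Dex 17 of the 50 replication genes were higher in GR-C3 cells and 1 lower, with a median of 0.28, against 17.3% and 12.1% of all genes. Under vehicle 8 were higher and 2 lower, with a median of 0.21, against 14.5% and 10.2%, so that the higher share was near that of all genes. With 11 arrays 25 were higher and 1 lower under Dex, against 24.3% and 16.2% of all genes. Under vehicle 10 were then higher and 2 lower, with a median of 0.12, against 16.2% and 11.1%. Nasp, a histone chaperone, exceeded WT by 0.86 ± 0.13 under Dex (adjusted p = 0.000684) and by 0.81 under vehicle. Dut, which removes dUTP, exceeded WT by 0.74 ± 0.11 under Dex (0.000613) and 0.62 under vehicle. Rpa3, the smallest subunit of the protein of Rpa1 and Rpa2, was higher by 0.62 ± 0.12 and Dctpp1, a nucleotide-cleaning enzyme, by 0.49 ± 0.11, and Pold4, a small subunit of polymerase delta, was lower by a log2 difference of -0.40 ± 0.11 (0.0181). In WT cells none of the 50 was called after Dex with 12 arrays, against 0.12% of all genes. With 11 arrays 9 fell and 1 rose, against 6.79% and 5.41% of all genes. The 1 that rose was Rnaseh2a (0.61, limma adjusted p = 0.00397), a subunit of the enzyme that removes ribonucleotides from DNA. Timeless, a protein of the moving fork, fell by 0.52 (0.0103), the transcription factor E2f2 by 0.49 (0.00723) and the reductase subunit Rrm2b by 0.63 (0.0212). None was called in GR-C3 cells with 12 or 11 arrays, against 0.101% and 3.44% of all genes.

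Mitotic genes differed between genotypes too. Under Dex 26 of the 38 were higher in GR-C3 cells and 1 lower, with a median of 0.49, and under vehicle 23 were higher and none lower, with the same median, against the shares of all genes given above. With 11 arrays 30 were higher and 1 lower under Dex, against 24.3% and 16.2% of all genes. Under vehicle 23 were then higher and none lower, against 16.2% and 11.1%. The centromere histone Cenpa was higher by 0.87 ± 0.11 under Dex (adjusted p = 0.000302) and by 0.94 under vehicle. The mitotic kinase Aurka was higher by 0.78 ± 0.11 and 0.77, and cyclin B1 (Ccnb1) by 0.75 ± 0.10 and 0.67. After Dex in WT cells none of the 38 was called with 12 arrays, against 0.12% of all genes. With 11 arrays 1 was called, Ube2c, which rose (0.46, limma adjusted p = 0.0349), against 5.41% of all genes higher and 6.79% lower. The difference between the lists was not tested. Array by array, the median deviation of the 44 members from their gene means was 0.10, 0.17 and 0.16 in GR-C3 Dex, 0.18, 0.24 and 0.13 in GR-C3 vehicle, -0.27, -0.12 and -0.30 in WT Dex and -0.24, 0.00 and -0.09 in WT vehicle. All GR-C3 arrays thus lay above all WT arrays on this measure, and the lowest of the WT vehicle arrays was the one labelled replicate 1.

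**Figure D5:**
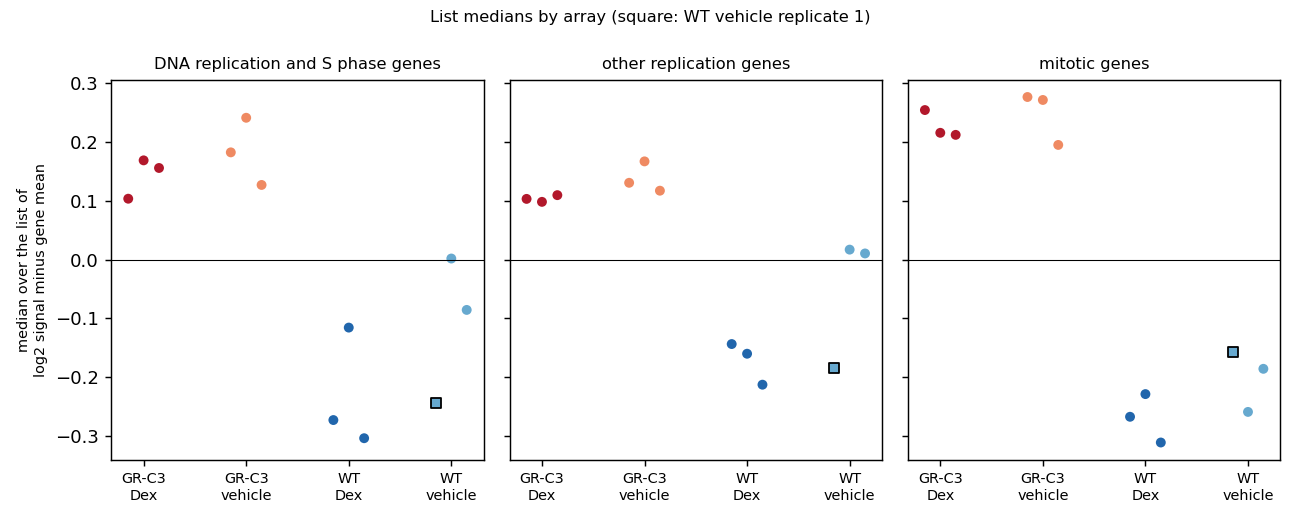
Median deviation of 3 gene lists (the 44 members, 50 other replication genes and 38 mitotic genes) from their gene means on each of the 12 arrays, as a log2 value, by group. For the 44 members the GR-C3 arrays lie between 0.10 and 0.24 and the WT arrays between -0.30 and 0.00.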

How the data were processed

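RNA of 12 MEF samples was labelled with Cy3 and hybridised to 1-colour Agilent arrays of 45018 spots, of which 1639 were controls and 43379 held 41174 probes. Per the file headers, the deposited scanner files hold the intensity of each spot from Feature Extraction 9.5.3.1 (9.5 in the submitters' processing notes), and the processed signal is that intensity after background subtraction, without scaling between arrays. The deposited series table held the same intensity values. From the authors' processed signal log2 was taken here, and each array's 75th percentile was subtracted. Control and outlier spots were left out and spots of a probe averaged. Probes well above background on all 3 arrays of some group passed (30934, with 10240 left out). Names came from RefSeq by accession (22951 probes), symbol (6659) or synonym (3109), or from the file (8455). Each of 20836 genes took its passing probe with the highest mean.

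Groups were compared in R 4.3.3 with limma 3.58.1, fitting 1 coefficient per group on all arrays, moderating with eBayes and adjusting by Benjamini-Hochberg over all 20836 genes at 0.05; ± is a standard error. The procedure was tested on simulated data. Alternatives were normexp background correction (offset 50) on deposited and on repaired local backgrounds, quantile normalization, 2 other filters, the slide as a fixed or random block, a replicate block, the mean of all probes, the compared arrays alone, and leaving out each array. Fits of 11 arrays and their alternatives were partly added after seeing the data.

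The members, lists and tests were chosen with earlier results of these data known. Members called in any comparison were named in full, with the brightest member of each role that had none. Up to 4 called genes with the smallest p were named from the lists of other replication and mitotic genes. Cell type markers were lists for fibroblasts, leukocytes, endothelium, epithelium, skeletal muscle, neural and glial cells, and pluripotent cells; 1 further marker list is not reported here. Regulators of G1 were a further list.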

Additional observations from a re-analysis of the deposited data

How the results depend on the processing

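For all 12 arrays, leaving out each array in turn gave 0 to 9 calls for Dex in WT, 0 for Dex in GR-C3 and for the interaction, 5 to 18 for genotype under vehicle and 14 to 26 for genotype under Dex. The medians ran from -0.24 to -0.11, from -0.09 to -0.03, from 0.06 to 0.19, from 0.23 to 0.35 and from 0.33 to 0.44 in the same order. Of all genes, these fits called 0 to 2543, 2 to 716, 0 to 238, 3235 to 5684 and 3986 to 8431. With 11 arrays the counts were 1 to 15, 0 to 1, 0 to 1, 3 to 18 and 21 to 32. Their medians were -0.31 to -0.14, -0.09 to -0.03, 0.067 to 0.23, 0.20 to 0.24 and 0.33 to 0.44.

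Normexp on the deposited local backgrounds gave a median of -0.42 for Dex in WT, 0.33 for the interaction and 0.60 for genotype under Dex, where 2 members were called, and 0 calls under vehicle. It also turned Orc1 under Dex to -0.37 (limma adjusted p = 0.455) and moved the median of all genes to 0.55 for Dex in WT. The slide as a fixed block gave 3 calls for Dex in WT (Pole2, Rfc3 and Rrm2), 2 under vehicle and 8 under Dex, and medians of 0.26 for the interaction and 0.12 under vehicle. For Dex in WT this block compared WT Dex replicate 1 with only the WT vehicle arrays of its slide, and for Rrm2 with a single array. Under vehicle 7 members were called with the slide as a random block, 9 without a filter and 8 with the compared arrays alone, which gave 1 (Rrm2) for Dex in GR-C3. With 11 arrays quantile normalization gave a median of 0.14 under vehicle. The cause of these shifts was not tested.

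The replicate block gave 11 calls under vehicle, 22 under Dex and 0 otherwise. Deviations of same-numbered samples correlated between -0.22 and 0.18, not all above 0.1, so the samples share only a number and were not treated as pairs. Over all genes, Dex in WT had 25 calls, 43 with quantile normalization, 1019 with the slide as a fixed and 82 as a random block, and 0 with normexp, without a filter, with the replicate block or with the compared arrays. Dex in GR-C3 had 21, 126 with quantile normalization, 314 and 34 with the slide, 0 with normexp, 14 with repaired normexp, 10 without a filter or with the replicate block, 12 with the mean of probes and 696 with the compared arrays. The interaction had 0, 3 with quantile normalization, 36 with the slide fixed and 1 with the replicate block. Genotype had 5148 under vehicle and 6136 under Dex, 377 and 456 with normexp, and 1630 and 3222 with the slide fixed. With 11 arrays the counts for Dex in WT, Dex in GR-C3 and the interaction were 2543, 716 and 238. Although 43 members were well above background on all arrays, their differences depended on the background correction, as given above.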

Other observations

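Regulators of G1, the phase before replication, changed in both directions between the genotypes. Of 21 such genes, 6 were higher and 5 lower in GR-C3 Dex than in WT Dex cells, and 5 were higher and 4 lower under vehicle (limma, Benjamini-Hochberg adjusted p under 0.05), against 17.3% and 12.1%, and 14.5% and 10.2%, of all genes. With 11 arrays the counts were 7 and 6 under Dex and 5 and 4 under vehicle, against 24.3% and 16.2%, and 16.2% and 11.1%, of all genes. Ccnd1, the D-type cyclin that starts the inactivation of the retinoblastoma proteins, was at 5.31, 5.34 and 5.39 in GR-C3 Dex, 5.30, 5.30 and 5.26 in GR-C3 vehicle, 6.13, 6.02 and 5.99 in WT Dex and 5.94, 6.06 and 6.08 in WT vehicle. Every GR-C3 array was below every WT array, by a log2 difference of -0.70 ± 0.09 under Dex (adjusted p = 0.000216) and -0.74 under vehicle (0.000146). Rbl2, a retinoblastoma family protein that represses E2F targets in resting cells, differed by -1.06 ± 0.19 under Dex (0.00237) and -1.05 under vehicle (0.00271). Myc was higher by 0.69 ± 0.17 under Dex (0.0118), and the Cdk inhibitor Cdkn2b by 0.75 ± 0.10 (0.0003) and by 0.68 under vehicle.

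After Dex, Cdkn1c, the Cdk inhibitor p57, was called in both genotypes with 11 arrays and in neither with 12. It lay at 1.73, 1.73 and 1.65 in GR-C3 Dex, 0.76, 0.95 and 0.58 in GR-C3 vehicle, 1.83, 1.92 and 1.75 in WT Dex and 2.28, 0.99 and 0.90 in WT vehicle. It rose by 0.94 ± 0.10 in GR-C3 cells (adjusted p = 0.00102) and by 0.89 ± 0.11 in WT cells (0.000821) with 11 arrays, against changes of 0.94 (0.244) and 0.45 (0.457) with 12. Cdkn1a, the inhibitor p21, rose by 0.61 ± 0.12 in WT cells with 11 arrays (0.0105), against 0.24 with 12 (0.679), and was not called in GR-C3 cells (-0.12 ± 0.11, 0.584), and the difference of these changes was not called either (adjusted p = 0.074). For Cdkn2a, which encodes p16 and Arf, the array labelled WT vehicle replicate 1 gave 4.14, and the other 11 gave 1.22 to 2.24.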
